A study of Mus musculus with 19 samples.

Results

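The data describe 10 genes of the thioredoxin and peroxiredoxin system across the 4 treatments of cultured mouse hippocampal neurons. They were chosen by name, as all probes annotated to Txnip, Txn1, Txnrd1, Prdx1, Prdx2, Prdx6, Srxn1 (Npn3 in older annotation), Sesn2, Sod1 and Hmox1. All 10 were measured, out of 19209 genes in all, with 21 of the 41174 probes on the array. Neurons that had been 21 days in culture were exposed for 6 h to 100 µM AP5, to 100 nM NVP-AAM077 (NVP), to 1 µM Ro25-4891 (Ro25) or to vehicle. AP5 is a competitive antagonist of all NMDA-type glutamate receptors, and NVP-AAM077 is an antagonist that prefers receptors with the GluN2A subunit. The number in the label Ro25-4891 is not that of the widely used GluN2B antagonist with the same prefix, and which compound was used cannot be told from the labels. The series holds 5 AP5, 4 NVP, 5 Ro25 and 5 vehicle arrays, and its title concerns the histone deacetylase HDAC4. No genotype, transgene or further agent is named for any group. The labels do not say whether replicate arrays stand for separate cultures, and a p-value here covers no more than the array-to-array spread, part of which may be technical.

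Thioredoxin (Txn1) reduces disulfide bonds in proteins and is itself recycled by thioredoxin reductase (Txnrd1), while Txnip, an alpha-arrestin, binds reduced thioredoxin and also limits glucose uptake. Peroxiredoxins (Prdx1, Prdx2, Prdx6) destroy peroxides, sulfiredoxin (Srxn1) repairs overoxidised peroxiredoxins, and sestrins such as Sesn2 are stress proteins that restrain mTORC1 signalling and were linked to the same repair. In cultured cortical neurons, synaptic NMDA receptor activity is known to hold Txnip down and to raise Srxn1 and Sesn2. Sod1 turns superoxide into peroxide in the cytosol, and Hmox1 opens the heme ring. Several of these genes are known targets of the oxidant-responsive factor NRF2, which in brain cultures is more active in astrocytes than in neurons.

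Each array compared neuron RNA, labelled red, with a commercial universal mouse reference RNA, labelled green, so a value here is the log2 ratio of neuron over reference and is negative where the reference holds more. The red signal passed the background criterion of the extraction software for 24924 to 28531 probes on each array. The neuronal markers Snap25, Map2 and Syt1 were above background on all 19 arrays, as were the astrocyte markers Gfap, Slc1a2 and Aqp4. The mean of 17 astrocyte markers lay between 2.85 and 3.03 on 4 arrays, 1 of each group, and between 3.65 and 4.31 on the other 15. The oligodendrocyte lineage markers were low on the same 4 arrays, at 1.59 to 1.94 against 2.01 to 2.71 on the other 15. In bulk RNA, fewer cells of a type and less RNA per cell cannot be told apart. The arrays lay on 5 slides, and AP5 and vehicle shared none of them: slide 1 held AP5 1 to 4, and slide 5 held vehicle 1, 3, 4 and 5. In the reference channel alone, 1240 genes passed the test between AP5 and vehicle arrays, although the same reference RNA was used throughout.

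Against vehicle, 2 of the 10 genes passed the test with AP5 (limma, Benjamini-Hochberg adjusted p under 0.05 over all genes), Txnip and Sod1, and both were higher. Among all genes tested in that comparison 18% passed, 10.8% higher and 7.22% lower, so the count for the redox genes is close to the background. Neither NVP nor Ro25 gave a call among the 10 genes, and 0% of all genes passed in either comparison (0 genes by limma, with 8.28% at an unadjusted p under 0.05 for NVP and 6.15% for Ro25). The median log2 difference over the 10 genes was 0.07 with AP5, 0.03 with NVP and 0.00 with Ro25, and over all genes it was 0.01 in each of the 3 comparisons. The differences ran from -0.09 to 0.33 with AP5, from -0.13 to 0.12 with NVP and from -0.19 to 0.11 with Ro25.

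**Figure D1:**
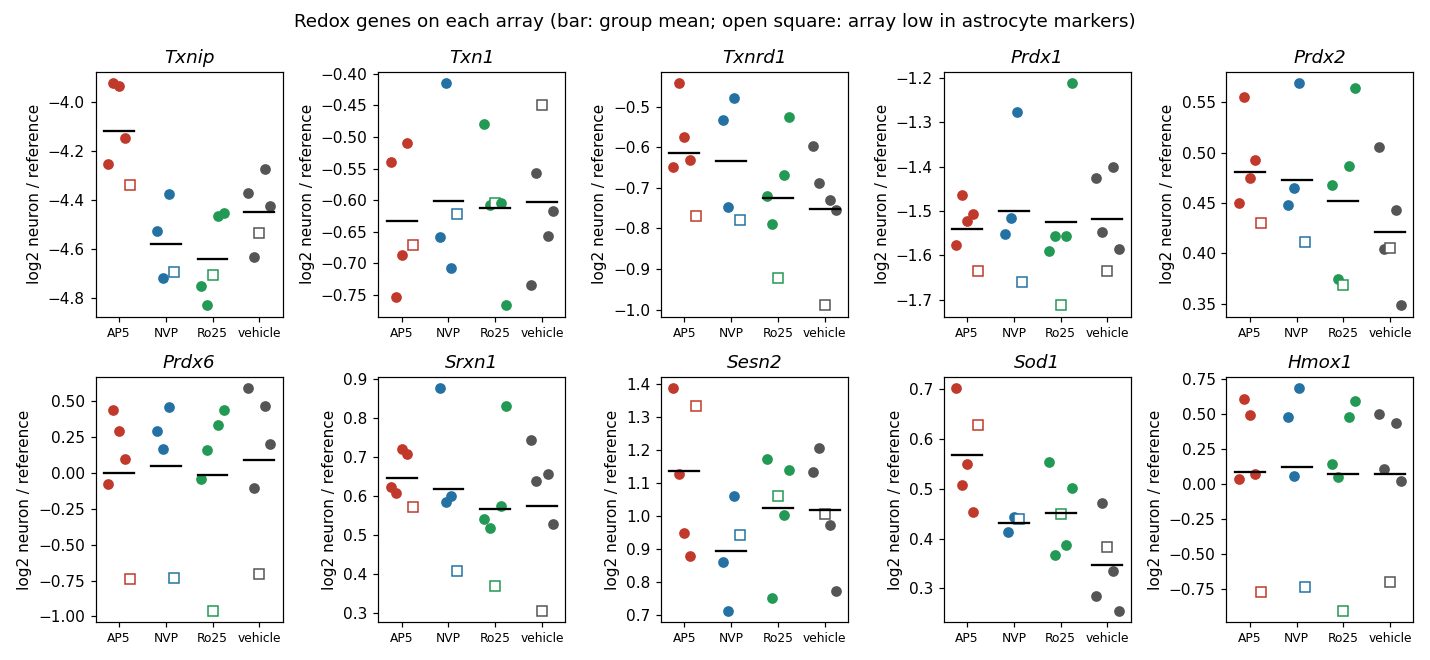
Log2 ratio of neuron over reference RNA (vertical axis) for the 10 genes in AP5, NVP, Ro25 and vehicle arrays (horizontal axis), 1 point per array, with the group mean as a bar and open squares for the 4 arrays low in astrocyte markers. Txnip and Sod1 sit higher in AP5 than in vehicle, and the open squares of Prdx6 and Hmox1 lie far below the other arrays of every group.

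Txnip, the inhibitor of thioredoxin, had the largest difference of the 10 genes with AP5. Its start on the RefSeq assembly GRCm38.p6 is preceded by the 250 bases at chr3:96557707-96557956 on the plus strand, shown because Txnip was called with AP5. Capitals mark the only forkhead site (GTAAACA) in the window, 121 to 115 bases before the start.
Txnip: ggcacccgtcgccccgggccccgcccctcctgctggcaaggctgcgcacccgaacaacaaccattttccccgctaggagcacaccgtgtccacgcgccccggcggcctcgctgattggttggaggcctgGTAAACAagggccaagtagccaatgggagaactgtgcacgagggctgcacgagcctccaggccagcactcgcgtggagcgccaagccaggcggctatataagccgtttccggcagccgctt
A set of 3 motifs was searched on both strands of these 250 bases for all genes, and the motifs did not overlap one another in the windows of the redox genes: GTAAACA, present in 3.17% of the 32851 RefSeq windows, the E-box CACGTG, present in 6.02%, and the antioxidant response element core TGACNNNGC, present in 10.2%. A match describes letters only. RefSeq windows were found for 8 of the 10 genes, not for Prdx6 and Hmox1. None of the 8 held the exact letters CACGTG, and Txnip alone held GTAAACA. Sequences that differ from CACGTG by a base, such as CACGAG in the Txnip window above, were not searched. The lack of CACGTG therefore does not speak to such sites.

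The log2 ratio of Txnip was -4.25, -3.92, -3.93, -4.15 and -4.34 on the AP5 arrays. It was -4.53, -4.72, -4.38 and -4.70 on the NVP arrays, -4.75, -4.83, -4.70, -4.47 and -4.45 on the Ro25 arrays, and -4.37, -4.63, -4.54, -4.27 and -4.43 on the vehicle arrays. Of the 5 AP5 arrays, 4 lay above every vehicle array, and the other, AP5 5, lay within the vehicle range. AP5 5 was the AP5 array low in astrocyte markers and also the only AP5 array not on slide 1. Slide and astrocyte signal cannot be told apart here. The difference of AP5 from vehicle was 0.33 (SE 0.099, adjusted p = 0.0271), which is a 1.26-fold higher ratio with a 95% interval of 1.09 to 1.45. All 5 AP5 arrays were above all NVP arrays and above all Ro25 arrays, where 8.14% and 6.86% of all genes had groups that did not overlap. Txnip was higher in AP5 than in NVP by 0.46 (SE 0.11, adjusted p = 0.0148) and higher in AP5 than in Ro25 by 0.52 (SE 0.099, adjusted p = 0.00267). No other of the 10 genes was called in those comparisons, where 4.24% and 6.06% of all genes passed (2.88% and 4.11% of all genes were higher). The groups stood in the order AP5, vehicle, NVP and Ro25, and no difference among the lower 3 passed the test: NVP minus vehicle was -0.13 (95% interval -0.35 to 0.09, adjusted p = 0.851), Ro25 minus vehicle was -0.19 (95% interval -0.40 to 0.02, adjusted p = 0.851), and NVP minus Ro25 was 0.06 (adjusted p = 1), a comparison in which 0% of all genes passed and 1.56% had an unadjusted p under 0.05.

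The Txnip call with AP5 had limits. It was lost when AP5 2, AP5 3, vehicle 2 or vehicle 3 was left out (adjusted p up to 0.0738, difference 0.28 to 0.38 over all arrays left out in turn), and the AP5 minus NVP call was lost without NVP 2 or NVP 4 (adjusted p up to 0.0662). With slide as a fixed block, a fit that links AP5 to vehicle only through the few arrays on shared slides, the difference from vehicle was -0.02 (adjusted p = 0.989), and with the mean of the kept probes it was 0.18 (adjusted p = 0.0465). With log ratios brought to the same spread on every array it was 0.36 (adjusted p = 0.655), and AP5 minus NVP (0.60, adjusted p = 0.789) and AP5 minus Ro25 (0.26, adjusted p = 0.75) were not called either. On slide 2, which held 1 AP5 and 2 NVP arrays, it was 0.11 for AP5 minus NVP. In the red channel alone the difference from vehicle was 0.55 (adjusted p = 0.005), against 0.08 (adjusted p = 0.378) in the reference channel. A dimmer Txnip probe at chr3:96644567-96644741 on the mm8 assembly gave 0.04 (adjusted p = 0.788), while the brighter probe used here lies at chr3:96646629-96646688.

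Txn1, thioredoxin itself, did not pass the test between any 2 treatments. Its log2 ratio averaged -0.63 ± 0.10 in AP5, -0.60 ± 0.13 in NVP, -0.61 ± 0.10 in Ro25 and -0.60 ± 0.11 in vehicle (SD, n = 5, 4, 5 and 5), and the ranges of the 4 groups overlapped. AP5 minus vehicle was -0.03 with a 95% interval of -0.18 to 0.12. Txnrd1, the enzyme that recycles thioredoxin, averaged -0.61 ± 0.12 in AP5, -0.63 ± 0.15 in NVP, -0.72 ± 0.15 in Ro25 and -0.75 ± 0.15 in vehicle (SD, same n). Its difference of 0.14 with AP5 (95% interval -0.04 to 0.32, adjusted p = 0.287) was the largest of the uncalled genes and did not pass the test.

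The 3 peroxiredoxins did not pass the test with any compound. Prdx1, a typical cytosolic peroxiredoxin, averaged -1.54 ± 0.067 in AP5 and -1.52 ± 0.10 in vehicle (SD, n = 5 each), a difference of -0.02 (95% interval -0.20 to 0.15). Its window is shown as the example of an antioxidant response element core in a gene that did not pass the test with AP5, at chr4:116685349-116685598 on the plus strand of GRCm38.p6. Capitals mark the core, which reads on the minus strand 133 to 125 bases before the start.
Prdx1: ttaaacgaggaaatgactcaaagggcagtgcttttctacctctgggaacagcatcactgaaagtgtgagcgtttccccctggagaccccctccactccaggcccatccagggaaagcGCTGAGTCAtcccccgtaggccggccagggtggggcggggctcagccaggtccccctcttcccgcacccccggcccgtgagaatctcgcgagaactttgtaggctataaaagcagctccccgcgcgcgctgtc
The core was also present in the windows of Sod1, Sesn2 and 1 of the 3 Txnrd1 starts, so 4 of the 8 genes with a window held it. Those 8 genes had 10 windows, and the share of 10.2% over all RefSeq windows is counted per window, not per gene. Whether the redox genes hold the core more often was not tested. Prdx2, a cytosolic peroxiredoxin abundant in neurons, averaged 0.48 ± 0.048 in AP5, 0.47 ± 0.068 in NVP, 0.45 ± 0.082 in Ro25 and 0.42 ± 0.058 in vehicle (SD, n = 5, 4, 5 and 5). Its AP5 difference was 0.06 (95% interval -0.04 to 0.16, adjusted p = 0.435), and its dimmer probes gave -0.11 and -0.04, so not even the sign was shared among probes. Prdx6, a peroxiredoxin with phospholipase activity, differed from vehicle by -0.09 with AP5, but with a 95% interval of -0.70 to 0.53 that leaves changes of some size undetectable. Its dimmer probes gave -0.06, 0.04 and 0.07 (adjusted p = 0.888, 0.81 and 0.572), so the sign was not shared among probes here either.

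Srxn1 and Sesn2, the genes known to respond to synaptic NMDA receptor activity in cortical neurons, did not pass the test here. Srxn1 had a log2 ratio of 0.62, 0.61, 0.72, 0.71 and 0.57 on the AP5 arrays. It was 0.88, 0.58, 0.60 and 0.41 on the NVP arrays, 0.54, 0.52, 0.37, 0.58 and 0.83 on the Ro25 arrays, and 0.74, 0.64, 0.31, 0.66 and 0.53 on the vehicle arrays. All 5 AP5 arrays fell inside the vehicle range, and the lowest array of each group was the 1 low in astrocyte markers. AP5 minus vehicle was 0.07 (95% interval -0.12 to 0.27, adjusted p = 0.652), and the other 2 Srxn1 probes gave 0.08 and -0.01.

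Sesn2 had a log2 ratio of 1.39, 1.13, 0.95, 0.88 and 1.34 on the AP5 arrays. It was 0.86, 0.71, 1.06 and 0.94 on the NVP arrays, 1.17, 0.75, 1.06, 1.00 and 1.14 on the Ro25 arrays, and 1.14, 1.21, 1.01, 0.97 and 0.77 on the vehicle arrays. Of the AP5 arrays, 2 lay above all vehicle arrays and the other 3 lay within their range. The difference was 0.12 with AP5 (95% interval -0.11 to 0.34, adjusted p = 0.496), -0.12 with NVP (-0.36 to 0.12) and 0.01 with Ro25 (-0.22 to 0.23). The lower bounds of the AP5 intervals were thus -0.12 for Srxn1 and -0.11 for Sesn2, with the brightest probes. A dimmer Sesn2 probe had group means of only -0.06 to -0.01, so the level of Sesn2 depended on the probe. That probe differed from vehicle by -0.01 with AP5 (adjusted p = 0.91), by 0.003 with NVP and by -0.05 with Ro25.

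**Figure D2:**
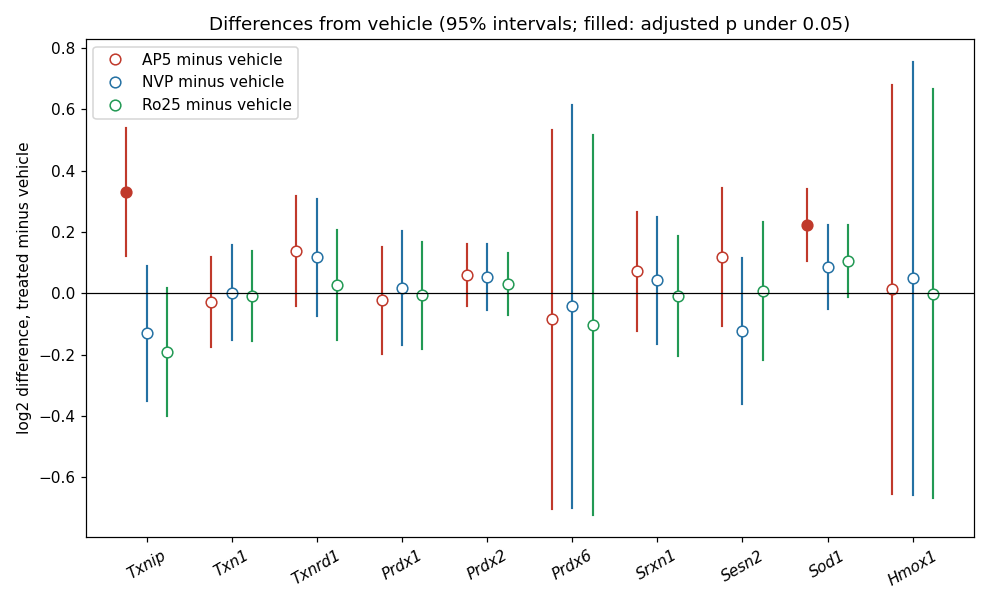
Log2 difference from vehicle (vertical axis) of each gene (horizontal axis) for AP5, NVP and Ro25, with 95% intervals from the limma fit and filled points where the adjusted p was under 0.05. Only Txnip and Sod1 with AP5 are filled, and the intervals of Prdx6 and Hmox1 reach beyond 0.5 on either side.

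Sod1, the cytosolic superoxide dismutase, was the second gene higher with AP5. The 250 bases before its RefSeq start, at chr16:90220512-90220761 on the plus strand of GRCm38.p6, hold 1 antioxidant response element core on the minus strand, 56 to 48 bases before the start, which is set in capitals.
Sod1: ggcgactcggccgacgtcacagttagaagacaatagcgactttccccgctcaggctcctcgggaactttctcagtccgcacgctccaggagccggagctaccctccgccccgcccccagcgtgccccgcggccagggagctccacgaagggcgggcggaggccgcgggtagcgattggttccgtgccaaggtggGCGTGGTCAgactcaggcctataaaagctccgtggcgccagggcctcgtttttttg
The log2 ratio of Sod1 was 0.70, 0.51, 0.55, 0.45 and 0.63 on the AP5 arrays. It was 0.41, 0.44 and 0.44 on 3 NVP arrays, since the spot on NVP 1 was marked and left out, then 0.55, 0.37, 0.45, 0.39 and 0.50 on the Ro25 arrays and 0.28, 0.47, 0.38, 0.34 and 0.26 on the vehicle arrays. Of the 5 AP5 arrays, 4 lay above every vehicle array. The other, AP5 4 (0.45), lay below vehicle 2 (0.47), the only vehicle array not on slide 5, and above the other vehicle arrays. The difference was 0.22 (SE 0.056, adjusted p = 0.0103) with AP5, a value that stayed called when any 1 array was left out (0.19 to 0.25). NVP and Ro25 lay between AP5 and vehicle, at differences of 0.09 and 0.11 from vehicle that did not pass the test (adjusted p = 0.837 and 0.867), and AP5 minus NVP (0.14) and AP5 minus Ro25 (0.12) did not pass it either. The call with AP5 was lost in the red channel alone (0.12, adjusted p = 0.154), in the deposited log ratio (0.17, adjusted p = 0.161), with slide as a fixed block (0.11, p = 0.857 after adjustment) and in the authors' processed table (0.12, adjusted p = 0.361), which holds another, dimmer Sod1 probe. It was also lost with the mean of the kept probes (0.12, adjusted p = 0.112) and with background marks ignored (0.15, adjusted p = 0.281). The 2 dimmer probes gave 0.11 (adjusted p = 0.315) and 0.01 (adjusted p = 0.878).

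Hmox1, the inducible heme oxygenase, and Prdx6 varied far more between the arrays of a group than between groups. Hmox1 had a log2 ratio of 0.03, 0.60, 0.49, 0.07 and -0.77 on the AP5 arrays. It was 0.48, 0.05, 0.68 and -0.74 on the NVP arrays, 0.14, 0.05, -0.90, 0.48 and 0.59 on the Ro25 arrays, and 0.50, 0.10, -0.70, 0.44 and 0.02 on the vehicle arrays. Cut at their 2 largest gaps (0.72 and 0.30), these values gave 3 bands. The bands lay at -0.90 to -0.70 (4 arrays), 0.02 to 0.14 (7 arrays) and 0.44 to 0.68 (8 arrays). The largest gap inside a band was 0.13. Such a cut gives 3 bands with smaller gaps inside for any values, so the gap sizes are no test of the bands. Every treatment was present in every band: the lowest band held 1 array of each group, the middle band 2 AP5, 1 NVP, 2 Ro25 and 2 vehicle arrays, and the highest band 2 of each group. The bands were noticed in the data and were not compared further. The difference of Hmox1 from vehicle was 0.01 with AP5, 0.05 with NVP and 0.00 with Ro25, with 95% intervals that reached 0.67 to 0.71 to either side.

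The lowest band held the same 4 arrays that were low in astrocyte markers. Prdx6 had a log2 ratio of -0.08, 0.44, 0.29, 0.10 and -0.74 on the AP5 arrays. It was 0.29, 0.16, 0.46 and -0.73 on the NVP arrays, -0.04, 0.16, -0.96, 0.33 and 0.44 on the Ro25 arrays, and 0.59, -0.11, -0.71, 0.46 and 0.20 on the vehicle arrays. In each group 1 array thus stood far below the rest, and it was again the 1 low in astrocyte markers. Relative to the mean of the other arrays of the same group, those 4 arrays stood at -1.22 to -0.97 for Hmox1 and at -1.18 to -0.93 for Prdx6. Within groups, Hmox1 had a slope of 1.18 (SE 0.062, adjusted p = 3.75e-11) per log2 unit of the astrocyte marker mean, and Prdx6 a slope of 1.09 (SE 0.059, adjusted p = 5.19e-11). These slopes lay at the 99.6 and 99.5 percentiles of all genes. With the 4 arrays left out the slopes were 1.36 (adjusted p = 0.000932) and 1.16 (adjusted p = 0.00153). The second brightest Prdx6 probe had a slope of 0.83 and the 2 dimmest had slopes of 0.28 and 0.20.

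Of the 10 genes, 7 had a called slope on the astrocyte marker mean and all 7 were positive, although those of Txnip and Prdx1 turned negative with equal spread on every array. Among all genes 33.9% had a called slope in the same fit, 16.2% positive and 17.8% negative. Besides Hmox1 and Prdx6 these were Txnrd1 (0.27), Srxn1 (0.24), Txnip (0.23), Prdx1 (0.22) and Prdx2 (0.10). The Prdx2 call was lost in 12 of the 19 fits that left out 1 array and held in 4 of 11 alternative settings. The Txnip slope was called in 6 of 11 (adjusted p up to 0.287, with the mean of the kept probes). In 1 of those 6, equal spread on every array, the called slope was negative. Txn1 (-0.08), Sesn2 (-0.07) and Sod1 (-0.05) were not called. Over the 15 arrays above the gap 8.43% of all genes passed, 4.87% positive and 3.55% negative, and 6 of the 10 genes did: Txnip (0.79, adjusted p = 0.0071), Txnrd1 (0.49) and Prdx1 (0.53) beside Hmox1 and Prdx6 in the positive direction, and Txn1 (-0.55, adjusted p = 0.0145) in the negative. The slope of Txnip over all 19 arrays missed the threshold without AP5 5 (adjusted p = 0.0533). With log ratios brought to the same spread on every array the slopes were 0.55 for Hmox1, 0.50 for Prdx6 and 0.05 for Txnrd1 (not called, adjusted p = 0.361), while those of Txnip (-0.52, adjusted p = 0.000746) and Prdx1 (-0.08, adjusted p = 0.195) had the opposite direction. The astrocyte marker mean was 3.82 ± 0.48 in AP5 and 3.60 ± 0.38 in vehicle (SD, n = 5 each), and 4 of its 17 genes passed the test higher with AP5, as did 4 of 12 neuronal and 2 of 10 oligodendrocyte lineage markers, beside 10.8% of all genes. Of 8 measured microglial markers 1 was lower, and of 7 measured endothelial and fibroblast markers 0 passed. The neuronal marker mean was 5.14 ± 0.093 in AP5 and 4.89 ± 0.16 in vehicle (SD, n = 5 each), and the part of neuronal and oligodendrocyte signal in the AP5 calls was not tested.

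With the astrocyte marker mean as a covariate, Txnip (0.28, adjusted p = 0.0125) and Sod1 (0.23, adjusted p = 0.00471) were again called with AP5. Without the 4 arrays low in astrocyte markers both were called as well, at 0.36 (adjusted p = 0.0358) and 0.22 (adjusted p = 0.0458). In the covariate fit Prdx6 was lower with AP5, at -0.32 (adjusted p = 0.00198), and so was Hmox1, at -0.24 (adjusted p = 0.0187). Thus 4 of the 10 genes were called, beside 5661 of the 19209 genes in all. The count over all genes was 3462 without the covariate, so it rose as well. Without the covariate Prdx6 had an adjusted p of 0.883 and Hmox1 of 0.985, so these 2 calls depend on that setting. With the 4 low arrays left out in place of the covariate, Prdx6 stood at -0.10 (adjusted p = 0.705) and Hmox1 at 0.03 (adjusted p = 0.923).

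**Figure D3:**
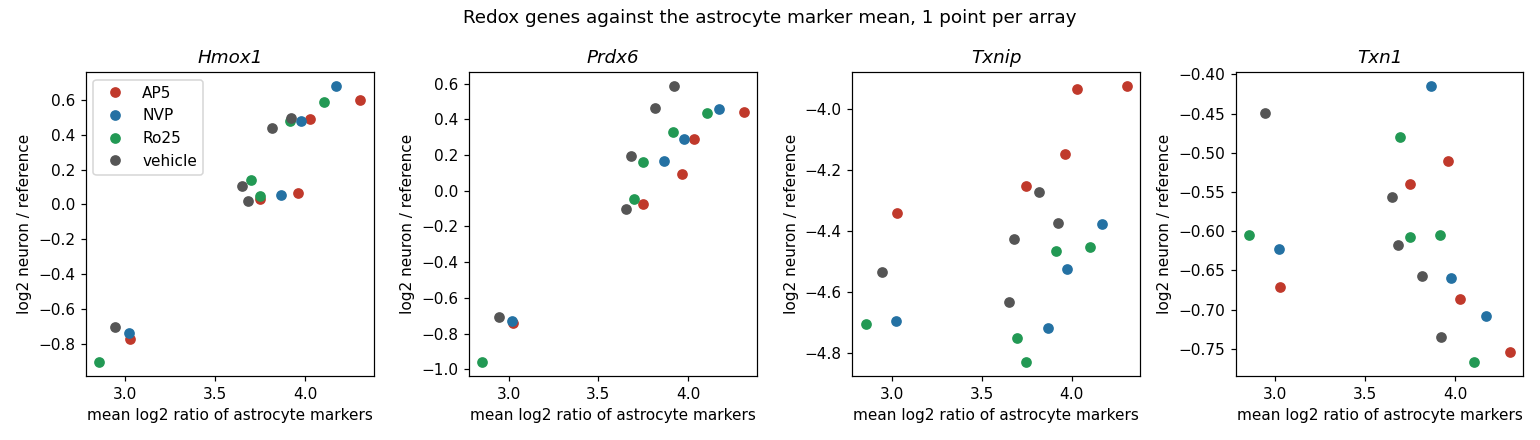
Log2 ratio of Hmox1, Prdx6, Txnip and Txn1 (vertical axes) against the mean log2 ratio of 17 astrocyte markers (horizontal axes), 1 point per array, coloured by treatment. The 4 arrays under 3.03 on the horizontal axis hold the lowest Hmox1 and Prdx6 values, and all AP5 points of Txnip lie above those of NVP and Ro25.

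The other genes of the redox pathways were counted in 9 lists of 78 genes, the 10 members included, chosen with earlier results of these data known. With AP5, 6 of the 77 genes measured passed the test higher and 7 lower, close to the 10.8% and 7.22% of all genes, and with NVP and Ro25 none did. Outside the 10 members the counts were 4 higher and 7 lower of 67, with a median difference of 0.01, as over all genes. The list with most calls was that of the alpha-arrestins and their glucose-sensing regulators, with 4 of 8 higher, Txnip included, and 1 lower and a median of 0.24.

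Among the alpha-arrestins, membrane-protein adaptors of the same family as Txnip, Arrdc2 ran from 0.51 to 0.88 in AP5 and from 0.07 to 0.35 in vehicle, without overlap (difference 0.45, adjusted p = 0.00104). Arrdc3 ran from 0.50 to 0.95 in AP5 and from 0.21 to 0.41 in vehicle, also without overlap (0.34, adjusted p = 0.00881). Arrdc4, the closest relative of Txnip and named after its value was seen, was higher by 0.30 (adjusted p = 0.0177), and Arrdc1 was lower, at -0.26 (adjusted p = 0.0078). Groups that do not overlap in this comparison were found for 11.9% of all genes. Mlxip, Mlx and Mlxipl, factors whose complexes respond to glucose metabolites and act on the Txnip promoter, gave -0.03, -0.20 (on 4 vehicle arrays) and 0.17 and did not pass the test. With slide as a fixed block, where 10 genes in all passed, the AP5 differences were 0.69 for Arrdc2, 0.64 for Arrdc3 and -0.07 for Arrdc1, and none of the 3 was called (adjusted p = 0.427, 0.416 and 0.916). Over 12 alternative settings the calls held in 11 for Arrdc2, 10 for Arrdc3 and 8 for Arrdc1.

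Sesn1, the sestrin related to Sesn2, ran from -0.47 to -0.07 in AP5 and from -1.04 to -0.48 in vehicle, without overlap, and was higher by 0.47 (SE 0.12, adjusted p = 0.0113), a difference that was -0.05 with slide as a fixed block. Mafk, a small partner protein of NRF2, ran from -1.46 to -0.99 in AP5 and from -0.75 to -0.46 in vehicle and was lower, at -0.52 (SE 0.086, adjusted p = 0.000424). It was the 1 call among 7 NRF2 regulators. Among 18 measured NRF2 target genes only Abcc1, an export pump for glutathione conjugates, passed, at -0.27 (adjusted p = 0.0293), a call that held in 3 of 12 alternative settings (-0.47 to -0.15, adjusted p up to 0.535) and was lost without AP5 1, AP5 5, vehicle 1, vehicle 4 or vehicle 5. The targets Nqo1, Gclc and Gclm gave -0.20, 0.04 and 0.06 without passing. Blvra, which reduces biliverdin, the product of Hmox1, was lower, at -0.26 (adjusted p = 0.00862), a call that held in 7 of 12 alternative settings and turned to 0.19 (adjusted p = 0.712) with slide as a fixed block. The glutaredoxins Glrx3 and Glrx, the latter of which reduces disulfides with glutathione, were lower. They stood at -0.21 (adjusted p = 0.00585) and -0.19 (adjusted p = 0.0231), the only calls among 20 glutathione genes. The Glrx call held in 7 of 12 alternative settings and was lost without AP5 2 or vehicle 1, and Glrx3 stood at -0.01 (adjusted p = 0.988) with slide as a fixed block. Txndc12, a thioredoxin-like protein of the endoplasmic reticulum, was lower, at -0.30 (adjusted p = 0.0475), a call that was lost in 12 of the 19 fits that left out 1 array.

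No call was made among the other peroxiredoxins, where Prdx5 had the smallest p at a difference of 0.05 (adjusted p = 0.652), nor for Sod2 (0.14, adjusted p = 0.166). With NVP the smallest p in any list belonged to Arrdc1 at -0.21 (adjusted p = 0.359), and with Ro25 also to Arrdc1 at -0.18 (adjusted p = 0.66).

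**Figure D4:**
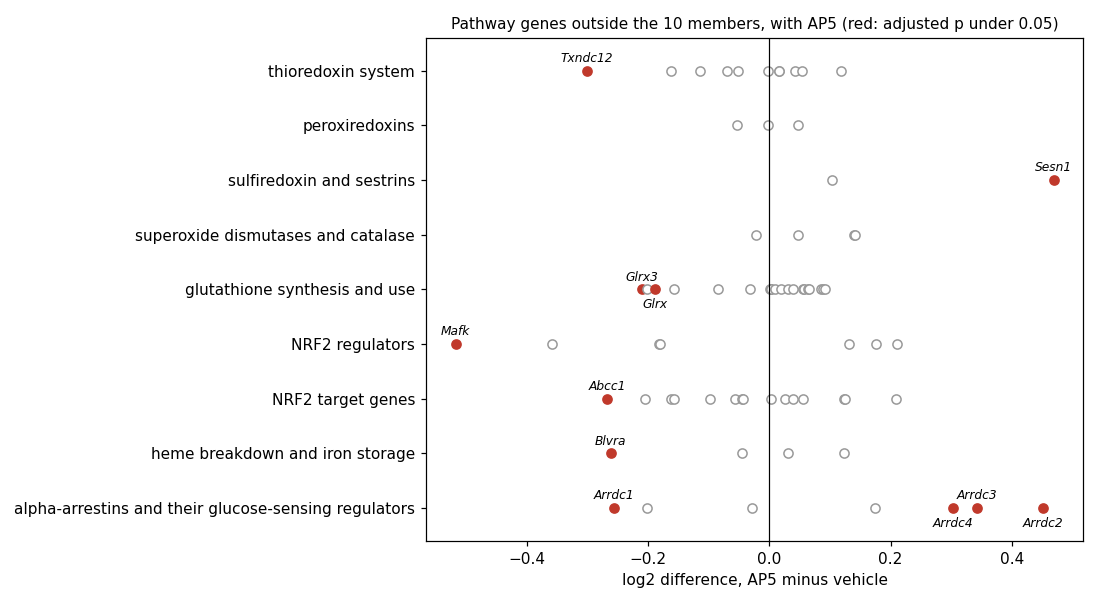
Log2 difference of AP5 from vehicle (horizontal axis) for the genes of the 9 redox lists outside the 10 members (1 row per list), with adjusted p under 0.05 in red and named. Of 67 genes, 4 lie to the right and 7 to the left in red, and 4 of the red points are alpha-arrestins.

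Genes whose pattern over the 19 arrays was most like that of a redox gene were taken from 15241 genes by Pearson correlation, given as a description with no test. All points share the same libraries and treatments, 4 of them stand apart in astrocyte markers, and the coefficients of Hmox1 run across its 3 bands, within which none was computed. For Txnip these were Hes1 (0.90), a repressor downstream of Notch, Rragc (0.89), a small GTPase of mTORC1 signalling, and Slc41a3 (0.89), and Hes1 was itself higher with AP5 by 0.56 (adjusted p = 0.00182). For Hmox1 they were Plin3, Anxa5 and Sdsl, each at 0.99, and none of the 3 differed between AP5 and vehicle by more than 0.06. For Sesn2 they were Slc35f6 (0.94), Ubl4a (0.92) and Slc6a9 (0.92), and for Srxn1 H3f3b (0.90), Sypl (0.84) and Mppe1 (0.84), where Srxn1 and Sesn2 had no gene in common among their 3.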

How the data were processed

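RNA from cultured hippocampal neurons was measured on 19 two-colour Agilent arrays. Per the file headers, the authors extracted each spot's intensity in both channels with Feature Extraction 9.5.3.1 (protocol GE2-v5_95_Feb07). Version 11.0 is the one in the submitters' processing notes. The deposited log10 ratio is red over green per the file headers. The deposited table of the authors' log2 values (20674 probes) was set against the ratios computed here and correlated at 0.999 to 1.00. Its column medians were 0.0345 to 0.0478, and its centring is unknown.

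Here, spots marked as not uniform or as outliers, in feature or background, were left out (117 to 266 per array, 1642 on vehicle 5). Background was corrected with normexp (offset 50), and log2 ratios were normalized by loess within arrays with controls at weight 0 (limma 3.58.1, R 4.3.3). Arrays had median signals of 136 to 178 in red and 88.7 to 107 in green. Dyes were not swapped, so a constant dye effect drops out of group differences. Probes with red well above background on at least 4 arrays were kept (28653 probes, 19209 genes), and each gene was represented by its brightest probe. A limma model over the 4 groups was fitted to all genes with Benjamini-Hochberg adjustment over all of them. Slopes on the astrocyte marker mean were fitted with group as a term. The fits were run on simulated arrays with known changes and noise drawn independently for each gene and array. Those arrays held no slide effect and no set of arrays low in astrocyte markers, so they do not bear on either. The number of arrays limits the precision, with a median 95% half-width of 0.16 for AP5 minus vehicle. Probe positions are those of mm8 per the file headers, and promoter windows are from RefSeq on GRCm38.p6, with no coordinates converted between them.

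The members and the pathway and marker lists were chosen with earlier results of these data known. Besides the members, up to 3 called genes per list and comparison with the smallest p, or the 1 with the smallest p where none was called, and the 3 genes most like Txnip, Srxn1, Sesn2 and Hmox1 were named. Arrdc4, Nqo1, Gclc, Gclm, Mlxip, Mlx and Mlxipl were named after their values were seen.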

Additional observations from a re-analysis of the deposited data

How the results depend on the processing

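AP5 and vehicle arrays shared no slide. With slide as a fixed block, 10 genes were called for AP5 minus vehicle, 190 for AP5 minus NVP and 23 for AP5 minus Ro25, with 0 redox genes called in each, and the AP5 differences of Txnip (-0.017), Blvra (0.19) and Sesn1 (-0.048) turned their sign. With slide as a random block, whose estimated correlation was -0.08, none of the 55 single-gene results that were refitted changed its call (the 10 members and the list genes named by rule). Arrdc4, Hes1 and the other genes most like a member, Nqo1, Gclc, Gclm, Mlxip, Mlx and Mlxipl were not refitted under the alternatives. The cause of these changes, and of those that follow, was not tested.

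The 2 redox calls of AP5 minus vehicle became 1 in the deposited log ratio, the red channel alone, the mean of kept probes, the log ratios brought to 1 spread, the authors' processed table and, chosen after seeing the data, with background marks ignored. They became 4 with the astrocyte covariate, where Hmox1 turned to -0.24. For AP5 minus vehicle the count of genes was 2104 in the red channel alone, 959 with ratios brought to 1 spread, 5661 with the astrocyte covariate and 1244 with background marks ignored. For AP5 minus NVP it was 273 with 1 spread, 1640 with the covariate, 414 with background marks ignored and 530 with the replicate block. For AP5 minus Ro25 it was 485 with 1 spread, 2178 with the covariate and 562 with background marks ignored. With 1 spread, 0 redox genes were called in both of these, and the astrocyte slopes of Txnip (-0.52) and Prdx1 (-0.078) turned negative. Ro25 minus vehicle had 4 genes called in the red channel alone, 2 with the covariate and 1 without the 4 arrays low in astrocyte markers, a setting chosen after seeing the data. Astrocyte slopes were called for 4316 genes with background marks ignored and 1617 without those 4 arrays.

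Leaving out each array in turn gave 2611 to 3493 genes and 1 to 2 redox genes for AP5 minus vehicle, 524 to 833 and 0 to 1 for AP5 minus NVP, 870 to 1165 and 1 for AP5 minus Ro25, 0 to 4 genes for NVP minus vehicle, 0 to 2 for Ro25 minus vehicle and 0 for NVP minus Ro25, with no redox gene in the last 3. For astrocyte slopes it gave 5027 to 6744 genes and 5 to 7 redox genes.

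Replicate numbers did not pair the arrays: same-numbered arrays correlated from -0.62 to 0.77 in their deviations from group means (mean -0.09), and 2 of 19 correlated best with their own number. With the replicate block Txnip stood at 0.33 (adjusted p = 0.0489) and Sod1 at 0.22 (adjusted p = 0.0307) for AP5 minus vehicle.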
